A study of Mus musculus with 6 samples.

Results

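The expression of 10 genes that encode parts of the basement membrane or proteins bound to it was followed in lung fibroblasts before and after transfer into injured mouse lungs. They are the laminin chain genes Lama2, Lama4, Lama5, Lamb2 and Lamc1, the nidogen genes Nid1 and Nid2, the proteoglycan genes Hspg2 and Agrn, and Npnt, which encodes nephronectin. They were chosen by symbol, and all 10 were among the 24408 genes of the deposited table. Before transfer, Npnt was by far the main source of tags from these genes, and in every library taken after transfer it was low. The other 9 genes together stood at 79.5 CPM (tags scaled to 1000000 per library) before transfer and at 59.9 to 74.1 CPM afterwards, with changes in opposite directions among them: Lama4 and Lama2 were lower after transfer, and Lama5 was higher at Day 7.

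The Untreated library held lung fibroblasts of Col-GFP reporter mice (C57BL/6) that had received no treatment, enriched after tissue dissociation by removing cells with lineage markers. The Day 2, Day 4 and Day 7 libraries held such Col-GFP cells after intratracheal transfer into wild-type hosts, sorted as GFP+ cells at 2, 4 and 7 days after transfer. The Acta2 low and Acta2 high libraries held transferred cells of mice with both Col-GFP and Acta2-mKO1, sorted by low or high signal of the reporter for Acta2, the smooth muscle actin gene, on a day that the labels leave unstated. All hosts had been given bleomycin, a lung-injuring drug, 7 days before the transfer. The Untreated cells differ from the others in the transfer, the injured host and possibly the way they were purified, and these cannot be told apart. The labels state neither the age of the mice nor whether animals were pooled.

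With 1 library for each of the 6 groups, differences have no replicate check and no p-value is given; intervals are 95% intervals of the counts. Depth was 4448065 to 6175334 tags per library, with 12575 to 13448 detected genes. All 9 fibroblast markers were detected in every library, with a summed level of 12056 to 22272 CPM. Endothelial markers summed to 2.75 to 3.93 CPM with Emcn at 0 tags in all 6 libraries, and leukocyte markers summed to 0 to 1.94 CPM with Ptprc and Cd68 at 0 throughout. The 8 pericyte and smooth muscle markers summed to 44.8 CPM in Untreated, 54.9 CPM at Day 2, 76.0 CPM at Day 4, 117 CPM at Day 7, 219 CPM in Acta2 low and 139 CPM in Acta2 high, with Des at 12.6 CPM in Untreated and 188.6 CPM in Acta2 low. Of these markers Cspg4, Rgs5, Notch3, Mcam and Myh11 were at 0 tags in Untreated, and all 8 were detected at Day 7 and in Acta2 low; their part in the results below was not tested. Among the 11 epithelial markers Cdh1 was at 0 tags in every library; their sum was 13.0 to 52.1 CPM except in Acta2 low, where it was 306.6 CPM, of which Krt8 made 265 CPM. In sorted bulk samples, fewer cells of a type and less RNA per cell cannot be told apart.

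Basement membranes are thin sheets of matrix under epithelia and endothelia and around muscle, fat and nerve cells. Laminins, each built from an alpha, a beta and a gamma chain, form one network and type IV collagen another; nidogens and the heparan sulfate proteoglycans perlecan and agrin connect the networks to each other and to cells. The alpha chain decides much of which receptors a laminin binds. In the lung, fibroblasts next to the alveolar epithelium contribute several of these proteins, and nephronectin, a ligand of the integrin that contains the Itga8 chain, is a known transcript of alveolar fibroblasts.

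The assay, 3' SAGE, reads a short tag near the 3' end of each transcript, so a gene's level does not grow with its length, but genes can differ in how well their tag is recovered. The labels do not name the enzyme that anchors the tags. If tags start at the last CATG of a transcript, as in common SAGE protocols, the 17 bases below are what stands for the genes that the results turn on. They come from the GENCODE transcripts (GRCm38) matched to each gene's RefSeq accession, which was possible for all 10 genes; capitals mark the anchoring site. They are shown because the laminin alpha genes belong to one family and are compared with each other: no 2 of these tags are the same, and none of the 10 tags was the last tag of another annotated gene.

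Npnt: CATGtgtcctgagaata

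Lama4: CATGtagttgggccgtt

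Lama2: CATGcccgactacctaa

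Lama5: CATGggcagggacacac

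Lamc1: CATGgaattttcctttg

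Nid1: CATGgtaaattgttaag

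The Npnt, Lamc1 and Nid1 tags lie in the 3' untranslated region, 291, 187 and 156 bases before the transcript end, on chromosomes 3, 1 and 13. The tags of Lama4 and Lama2, both on chromosome 10, and of Lama5 on chromosome 2 lie in the coding sequence, 371, 227 and 508 bases before the end. These places are those of the GRCm38 annotation and not of the authors' build.

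Npnt stood at 1095 CPM (5993 tags) in Untreated, 39.2 CPM (242 tags) at Day 2, 15.3 CPM (68 tags) at Day 4, 45.3 CPM (265 tags) at Day 7, 31.6 CPM (161 tags) in Acta2 low and 25.2 CPM (126 tags) in Acta2 high. The untreated cells were thus far above all transferred cells, and Day 4 was the lowest. The median gene itself stood higher than in Untreated, by 0.66 log2 at Day 2, 0.31 at Day 4 and 0.39 at Day 7, so folds below are CPM ratios divided by the fold of the median gene. On this scale Npnt was 44.1-fold lower at Day 2 (38.8 to 50.3), 88.8-fold lower at Day 4 (69.9 to 115) and 31.6-fold lower at Day 7 (27.9 to 35.9). These 3 comparisons share the Untreated library. Between Day 4 and Day 7 it was 2.82-fold higher (2.16 to 3.74). In the order of its levels, Day 7 and Day 2 could not be separated by counting error (CPM ratio 1.16, 0.967 to 1.38), nor could Acta2 low and Acta2 high (1.26, 0.989 to 1.60), whereas Acta2 high lay above Day 4 (1.65, 1.22 to 2.24).

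Npnt accounted for 5993 of the 6428 tags of the 10 genes in Untreated and for 68 of 361 at Day 4. The summed level of the 6 mesothelial markers was also highest in Untreated, at 46.1 CPM, led by Upk1b at 38.6 CPM. After transfer the sum was 2.75 CPM at Day 2, 5.17 CPM at Day 4, 2.73 CPM at Day 7, 11.2 CPM in Acta2 low and 3.79 CPM in Acta2 high. These later sums rest on 16 to 57 tags. The part of these markers in the result was not tested. Itga8, the integrin chain that pairs with nephronectin and was singled out after its values were seen, had 76 tags in Untreated, 5 at Day 2, 7 at Day 4, 15 at Day 7, and 7 and 8 in the Acta2 low and Acta2 high sorts. Relative to the median gene it was 27.1-fold lower at Day 2 (11.1 to 85.7) and 7.08-fold lower at Day 7 (4.03 to 13.3). The genes with the most similar profile to Npnt over the 6 libraries, among 1311 genes with a mean of at least 50 CPM, were Efemp1, which encodes a fibulin-type matrix protein, and Sod3, the extracellular superoxide dismutase. Their profiles of log2(CPM + 1), each centred on its mean, differed from that of Npnt by a root mean square of 0.28 and 0.35 log2. Efemp1 stood at 392 CPM in Untreated and at 7.64 to 19.5 CPM after transfer.

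**Figure D1:**
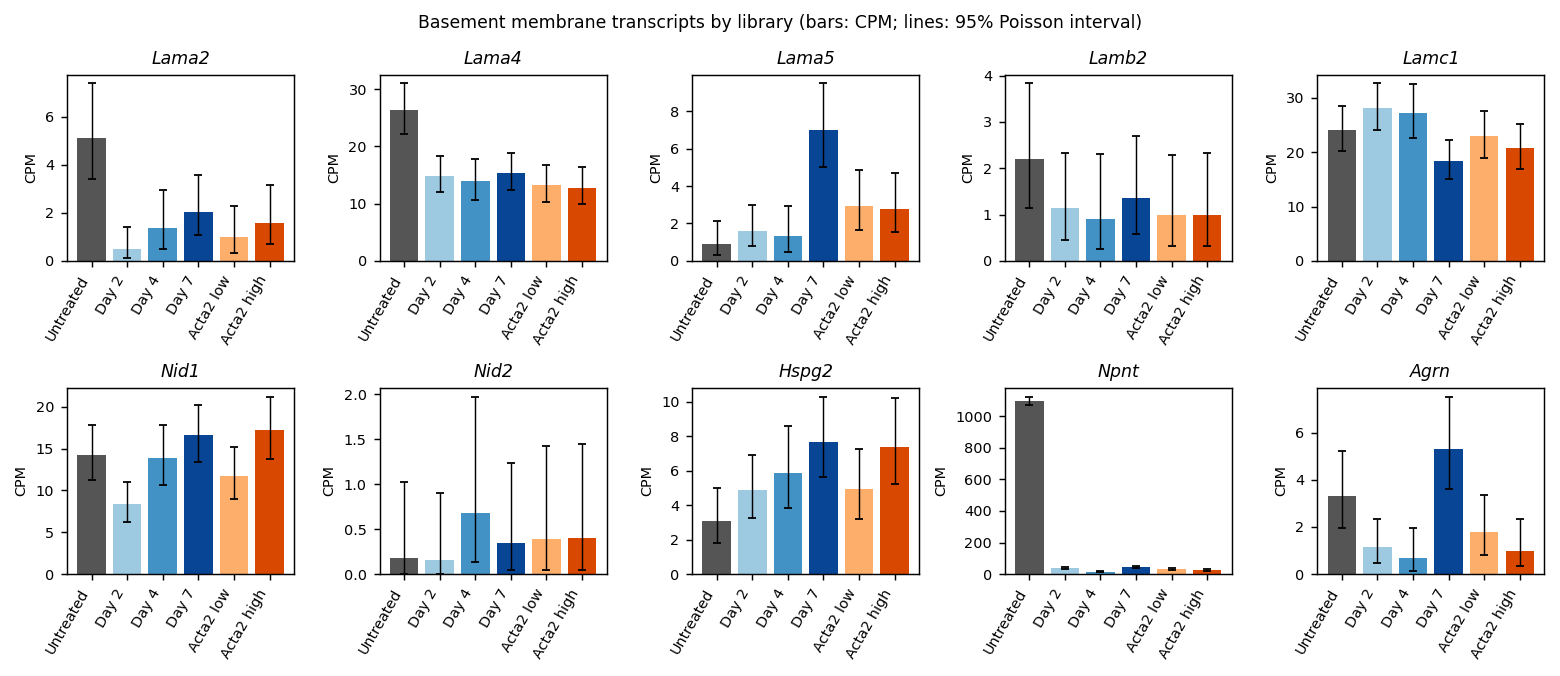
Level of each of the 10 genes in CPM (vertical axis, starting at 0, a separate scale for each gene) in the 6 libraries; lines are 95% Poisson intervals of the tag counts. Npnt stands at 1095 CPM in Untreated and at 15.3 to 45.3 CPM in the other libraries, Lama4 is highest in Untreated and Lama5 highest at Day 7.

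Among the 10 genes, only Npnt, Lama4, Lamc1 and Nid1 reached a mean of 10 CPM over the compared libraries, in each of the 6 comparisons; the other 6 genes had means of 0.359 to 5.63 CPM over the 6 libraries and rest on few tags. A measured gene was counted as past 2-fold when its difference of log2(CPM + 1) lay at least 1 from that of the median gene. At Day 2, Npnt, Lama4 and Nid1 were past 2-fold lower and Lamc1 was within 2-fold, where 20.3% of 4256 measured genes were past 2-fold lower. At Day 4 Npnt and Lama4 were past 2-fold lower (18.7% of 3933 genes), and at Day 7 again Npnt and Lama4 (11.3% of 4017 genes). The median of the 4 genes lay 1.40, 0.76 and 0.94 log2 below that of all measured genes at Day 2, Day 4 and Day 7. With no more than 4 measured genes these counts describe the genes and say little about the group. Without centring on the median gene, Npnt alone was past 2-fold in each of the 3 comparisons. With no filter on low values, which changes the median gene, Lama4 fell short of 2-fold in all 3 (-0.998, -0.957 and -0.966 log2) and Nid1 at Day 2 (-0.91 log2). Npnt was also the one measured gene of the 10 past 4-fold in each. Of all measured genes, 14.5%, 14.5% and 7.57% were past 4-fold in either direction. Lama2, under the level filter, was at -2.70 log2 at Day 2.

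Lama4 encodes the alpha chain typical of laminins of vessels and mesenchymal cells. It had 26.3 CPM (144 tags) in Untreated, 14.9 CPM (92 tags) at Day 2, 13.9 CPM (62 tags) at Day 4, 15.4 CPM (90 tags) at Day 7, 13.2 CPM (67 tags) in Acta2 low and 12.8 CPM (64 tags) in Acta2 high. The level in Untreated was above that in all 5 libraries of transferred cells, which lay close together and whose neighbours in the order could not be separated by counting error. Relative to the median gene, Lama4 was 2.79-fold lower at Day 2 (2.13 to 3.66), 2.34-fold lower at Day 4 (1.73 to 3.20) and 2.24-fold lower at Day 7 (1.71 to 2.94). In CPM the next highest library was Day 7, and Untreated was above it by a ratio of 1.71 (1.31 to 2.25).

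Lama2 encodes the alpha chain of muscle laminin, which binds dystroglycan. It had 28 tags in Untreated (5.12 CPM), 3 at Day 2 (0.486 CPM), 6 at Day 4 (1.35 CPM), 12 at Day 7 (2.05 CPM), 5 in Acta2 low (0.982 CPM) and 8 in Acta2 high (1.60 CPM). It was highest before transfer. Its fold relative to the median gene was 16.6 lower at Day 2 (5.13 to 85.4), 4.70 lower at Day 4 (1.91 to 13.9) and 3.26 lower at Day 7 (1.61 to 7.04). Neighbours in the order of levels after transfer could not be separated by counting error; pairs further apart were not compared.

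Lama5, whose product is the main laminin alpha chain under lung epithelium, went the other way. It had 5 tags in Untreated (0.914 CPM), 10 at Day 2 (1.62 CPM), 6 at Day 4 (1.35 CPM), 41 at Day 7 (7.00 CPM), 15 in Acta2 low (2.95 CPM) and 14 in Acta2 high (2.80 CPM). Day 7 stood above every other library, and above Acta2 low, the next in order, by a CPM ratio of 2.38 (1.29 to 4.62). Relative to the median gene, Lama5 was 5.87-fold higher at Day 7 than in Untreated (2.32 to 19.0) and 4.95-fold higher than at Day 4 (2.09 to 14.3). At Day 2 and Day 4 its ratio to Untreated was 1.12 (0.350 to 4.19) and 1.19 (0.303 to 4.93), so no change was detectable at this depth. The 11 epithelial markers summed to 52.1 CPM in Untreated, 23.8 CPM at Day 4 and 50.6 CPM at Day 7, with Cdh1 and Sftpb at 0 tags in all 3 libraries. These markers did not move together. Scgb1a1, the club cell secretoglobin gene, had 57, 3 and 129 tags in these libraries, and the surfactant genes Sftpc and Sftpa1 had 113, 15 and 87 tags and 39, 5 and 29 tags. Krt8 went the other way, with 50, 73 and 38 tags, and Krt18 had 6, 7 and 6 tags. The part of the epithelial markers in the Lama5 result was not tested.

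The mix of alpha chains therefore differed between libraries, a comparison that does not depend on the library total or on the median gene. Of 177 tags from the 5 laminin alpha genes in Untreated, 81.4% came from Lama4 (Clopper-Pearson interval 74.8 to 86.8), 15.8% from Lama2 (10.8 to 22.0) and 2.82% from Lama5 (0.923 to 6.47). At Day 2, Lama2 made 2.83% of 106 tags (0.588 to 8.05) and Lama4 86.8% (78.8 to 92.6). At Day 7, Lama5 made 28.3% of 145 tags (21.1 to 36.3), and Lama4 62.1% (53.6 to 70.0). The Lama5 share at Day 7 lay above, and the Lama4 share below, the interval of the same share in Untreated, Day 2 and Day 4. In the Acta2 low and Acta2 high libraries, Lama5 made 17.2% (9.98 to 26.8) and 16.1% (9.09 to 25.5) of 87 tags each. Lama1 and Lama3 together had at most 2 tags in a library.

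**Figure D2:**
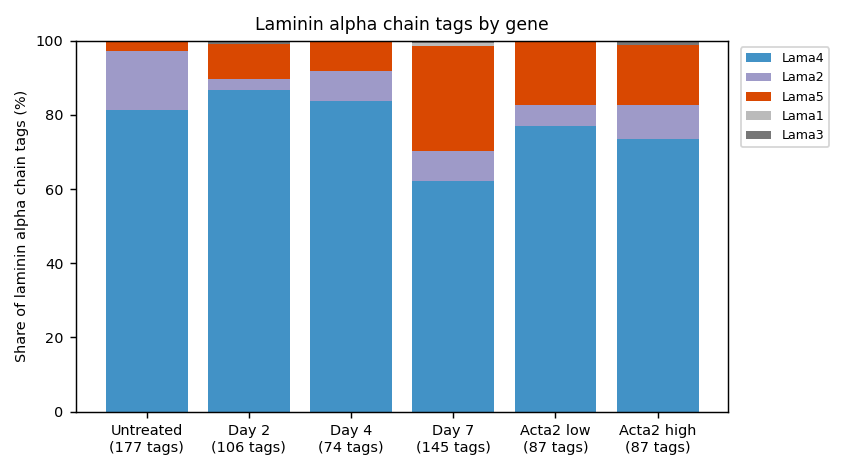
Share of the tags of all 5 laminin alpha chain genes that came from each gene (vertical axis, percent) in the 6 libraries, with the number of tags under each bar. Lama5 makes 2.82% in Untreated and 28.3% at Day 7, and Lama2 15.8% in Untreated and 2.83% at Day 2.

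Lamc1 encodes the gamma chain that most laminins share and that binds nidogen. It had 24.1 CPM (132 tags) in Untreated, 28.2 CPM (174 tags) at Day 2, 27.2 CPM (121 tags) at Day 4, 18.5 CPM (108 tags) at Day 7, 23.0 CPM (117 tags) in Acta2 low and 20.8 CPM (104 tags) in Acta2 high. In the order of its levels, neighbouring libraries could not be separated by counting error. Its highest level was 1.53 times its lowest, the narrowest range of the 10 genes. Relative to the median gene, Lamc1 was 1.71-fold lower at Day 7 (1.31 to 2.22) and 1.35-fold lower at Day 2 (1.07 to 1.70); the Day 2 direction turns in CPM, where it was higher. At Day 7 it was 1.55-fold lower than at Day 4 (1.18 to 2.02), within the 2-fold rule. Lamb2, a beta chain gene, had only 4 to 12 tags in a library. Its ratio to Untreated relative to the median gene was 0.328 at Day 2 (0.109 to 0.903), 0.331 at Day 4 (0.0778 to 1.09) and 0.477 at Day 7 (0.169 to 1.27).

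Nid1 encodes the nidogen that ties laminin to type IV collagen. It had 14.3 CPM (78 tags) in Untreated, 8.42 CPM (52 tags) at Day 2, 13.9 CPM (62 tags) at Day 4, 16.6 CPM (97 tags) at Day 7, 11.8 CPM (60 tags) in Acta2 low and 17.2 CPM (86 tags) in Acta2 high. Day 2 was the lowest, and the levels at Day 4 and Day 7 were near that before transfer. Relative to the median gene Nid1 was 2.67-fold lower at Day 2 (1.86 to 3.87), and at Day 4 it was 2.11-fold higher than at Day 2 (1.43 to 3.11). By the rule on log2(CPM + 1) it was the one gene of the 10 past 2-fold in that step, where 5.05% of 4259 measured genes were past 2-fold higher. It lay just past the threshold of 1 log2, and was at 0.88 log2 with no filter on low values and at 0.67 with no centring. Npnt lay just short of the threshold in the same step, at -0.95 log2, with a fold of 2.01 lower (1.53 to 2.68). At Day 7 the ratio of Nid1 to its level in Untreated, relative to the median gene, was 0.890 (0.654 to 1.21). Nid2, the second nidogen gene, had 1 to 3 tags in a library, so its changes could not be measured; Nid1 made 95.4% to 98.7% of nidogen tags.

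Both heparan sulfate proteoglycan genes had few tags, with their highest levels at Day 7. Counting error could not separate that level from the next in order. The CPM ratio was 1.04 to Acta2 high for Hspg2 (0.659 to 1.65) and 1.61 to Untreated for Agrn (0.873 to 3.06). Hspg2, which encodes perlecan, had 17 tags in Untreated (3.11 CPM), 30 at Day 2 (4.86 CPM), 26 at Day 4 (5.85 CPM), 45 at Day 7 (7.69 CPM), 25 in Acta2 low (4.91 CPM) and 37 in Acta2 high (7.39 CPM). Its level was lowest before transfer, though not separated from Day 2 by counting error (CPM ratio of Day 2 to Untreated 1.56, 0.835 to 3.02). Its fold at Day 7 relative to the median gene was 1.89 higher (1.06 to 3.53), while the intervals at Day 2 and Day 4 cover 1. Agrn, which encodes agrin, had 18 tags in Untreated (3.29 CPM), 7 at Day 2 (1.13 CPM), 3 at Day 4 (0.674 CPM), 31 at Day 7 (5.30 CPM), 9 in Acta2 low (1.77 CPM) and 5 in Acta2 high (0.998 CPM). It was lower at Day 2 and Day 4 than before transfer, with ratios relative to the median gene of 0.219 (0.0771 to 0.548) and 0.165 (0.0312 to 0.567). At Day 7 it was 7.49 times the Day 4 level (2.34 to 38.3), and its ratio to Untreated was 1.23 (0.668 to 2.34). From Day 4 to Day 7, Npnt was the one measured gene past 2-fold (10.3% of 4132 genes were past 2-fold higher), and Lama5 and Agrn, under 10 CPM, had intervals above 1 as well.

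**Figure D3:**
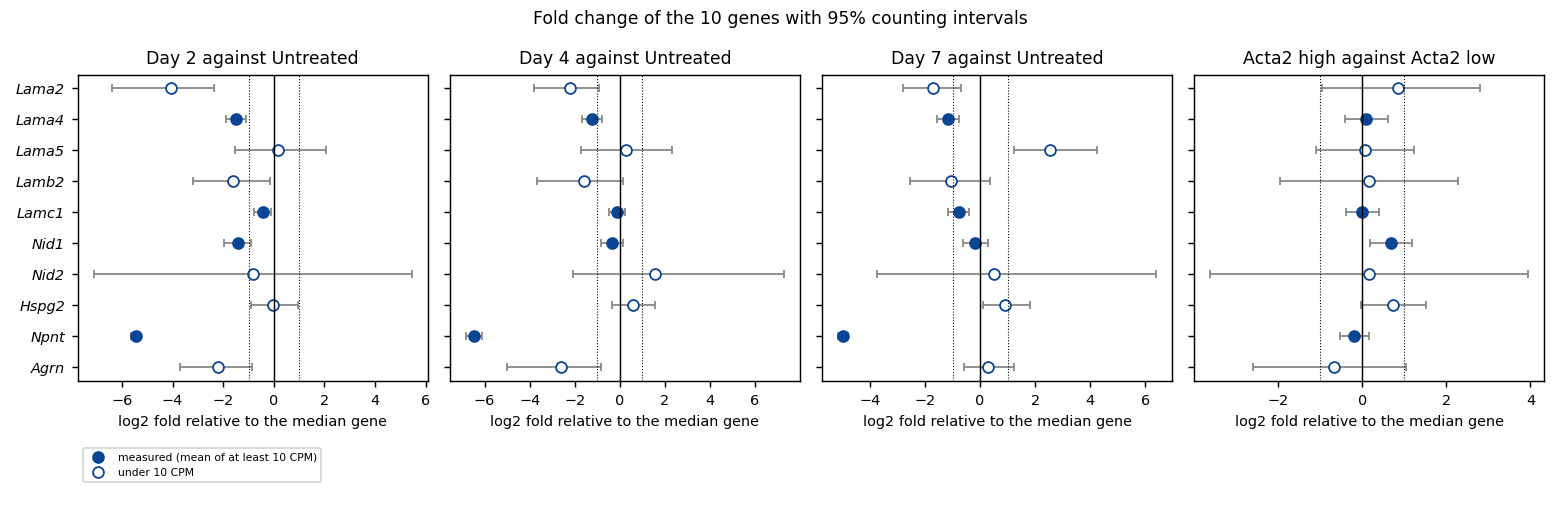
Fold of each gene relative to the median gene on a log2 axis, for Day 2, Day 4 and Day 7 against Untreated and for Acta2 high against Acta2 low; each panel has its own horizontal range. Filled points are genes with a mean of at least 10 CPM and open points genes below it, lines are 95% counting intervals and dotted lines mark 2-fold. Npnt lies at 31.6- to 88.8-fold lower after transfer, while the Acta2 panel shows no measured gene past 2-fold.

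None of the 4 measured genes was past 2-fold between Acta2 high and Acta2 low, where 1.60% of 3998 measured genes were past 2-fold in either direction; with that share, a count of 0 among 4 genes says little. Nid1 was 1.61-fold higher in Acta2 high (1.14 to 2.28) and was the only one of the 10 whose interval did not cover 1. Hspg2 had a ratio of 1.66 (0.973 to 2.88), Lama4 of 1.07 (0.749 to 1.53), Lamc1 of 0.997 (0.758 to 1.31) and Npnt of 0.878 (0.690 to 1.12). For Npnt, Lama4 and Lamc1 the counting error leaves room for differences of about these intervals. The other 6 genes were under the level filter, with wide intervals such as 0.518 to 6.98 for Lama2, 0.258 to 4.88 for Lamb2 and 0.164 to 2.07 for Agrn.

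Other basement membrane genes, from lists of related genes, went several ways. In either direction, 40.4%, 38.2% and 22.9% of measured genes were past 2-fold from Untreated at Day 2, Day 4 and Day 7. Of 9 basement membrane collagen genes, 4 were measured at Day 2 and none was past 2-fold; 2 of 5 were past 2-fold higher at Day 4 and 3 of 5 at Day 7, with none lower. The median of these collagens lay 0.20 log2 below that of all measured genes at Day 2, 0.18 above at Day 4 and 1.57 above at Day 7. Genes close to 0 before transfer pass the level filter through their later rise alone, so part of such counts is set by the filter.

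Col7a1, the gene of anchoring fibril collagen, had 7 tags in Untreated, 48 at Day 2, 97 at Day 4, 283 at Day 7, and 139 and 161 in the Acta2 low and Acta2 high sorts, and was 28.9-fold higher at Day 7 (13.9 to 72.6). Col15a1, a collagen that bridges basement membrane and interstitial matrix, stood at 5.30 CPM in Untreated and 40.7 CPM at Day 4, 6.19-fold higher (4.17 to 9.51), and was 2.52-fold higher in Acta2 high than in Acta2 low (2.00 to 3.19). The type IV collagen gene Col4a2 was 3.05-fold higher at Day 7 (2.52 to 3.72), at 96.2 against 24.1 CPM, whereas Col4a1, its neighbour and partner chain, named after its values were seen, was at 50.4 against 32.7 CPM, a ratio of 1.18 (0.976 to 1.43).

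Of 21 further basement membrane and linker genes, 5 were measured at Day 2 with 1 higher and 2 lower past 2-fold, 5 at Day 4 with 2 higher and 2 lower, and 6 at Day 7 with 2 higher and 3 lower. Among all measured genes 20.3%, 18.7% and 11.3% were past 2-fold lower on these days, and 40.4%, 38.2% and 22.9% in either direction. Sparc, a collagen-binding matricellular protein, was 4.21-fold higher at Day 4 (4.15 to 4.26) and 7.65-fold higher at Day 7 (7.56 to 7.74). Hmcn1, which encodes hemicentin, was 3.52-fold lower at Day 2 (2.70 to 4.61) and 2.65-fold higher at Day 7 (2.24 to 3.15). Fbln2, a fibulin that binds nidogen and laminin, was 6.07-fold higher at Day 4 (5.11 to 7.26), and Ecm1 was 3.67-fold lower at Day 2 (3.52 to 3.82).

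Of 15 receptor genes, 4 were measured in each comparison with Untreated. Sdc1, the gene of the cell surface proteoglycan syndecan, stood at 1.46 CPM in Untreated and 104 CPM at Day 7, 54.5-fold higher (27.5 to 127), and at 59.3 CPM at Day 2. Sdc4 was 4.90-fold lower at Day 7 (4.52 to 5.32), Itgb1, the beta chain of the laminin-binding integrins, was 2.21-fold higher at Day 4 (1.89 to 2.60), and Sdc2 was within 2-fold in all 6 comparisons. Among 8 dystroglycan glycosylation genes in the table, none of the 1 or 2 measured was past 2-fold in any of the 6 comparisons; Pomgnt1 and Tmem5 were the measured ones. Of 19 heparan sulfate synthesis and editing genes, 4 were measured at Day 2 and at Day 4. The one past 2-fold was Extl3, lower by 2.95-fold (2.22 to 3.95) and 3.67-fold (2.52 to 5.46). From Day 4 to Day 7 Extl3 was past 2-fold higher, at 8.09 and 27.8 CPM, with 23.9 CPM in Untreated. B3gat3, Hs2st1 and Ext2 stayed within 2-fold in all 6 comparisons. At Day 7, 1 of 5 was past 2-fold, Sulf1, a sulfatase that edits heparan sulfate, at 2.76-fold higher (1.81 to 4.35). Sulf1 was named after its values were seen and passed the level filter through its Day 7 level, at 18.5 against 5.12 CPM in Untreated. The shares of all measured genes past 2-fold in either direction were 40.4%, 38.2% and 22.9% at Day 2, Day 4 and Day 7.

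**Figure D4:**
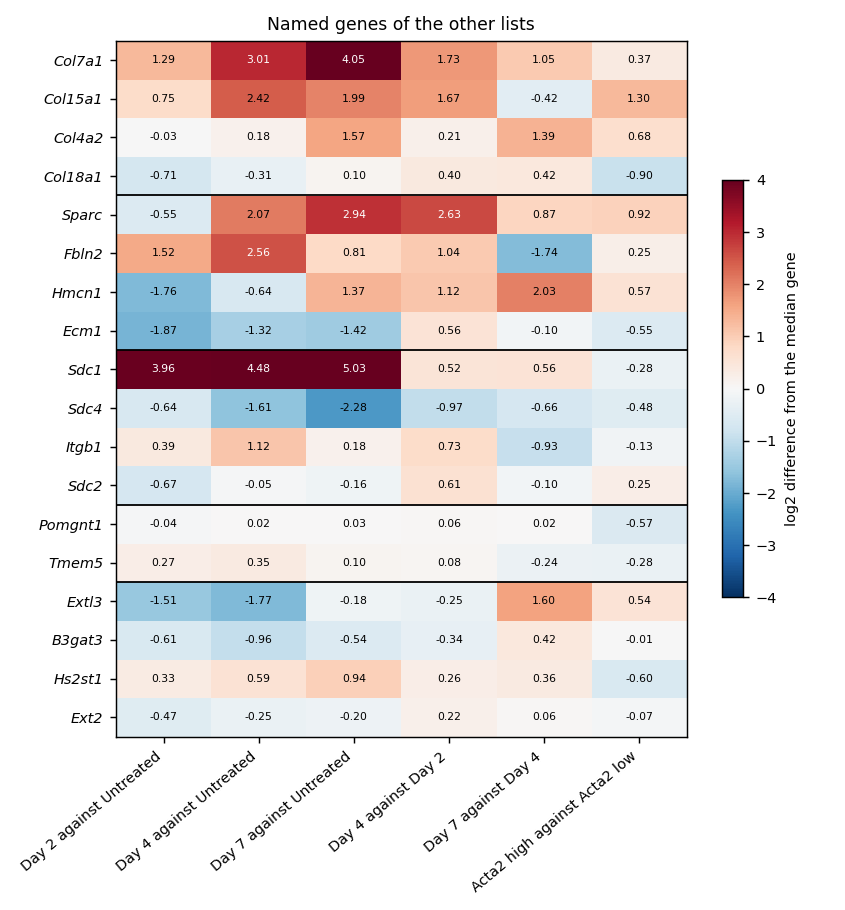
Difference of log2(CPM + 1) from the median gene (colour, printed in each cell; colours end at 4 below and above) for the 18 genes named from the other lists, in the 6 comparisons. Lines separate collagens, linker proteins, receptors, dystroglycan glycosylation and heparan sulfate genes; Sdc1 and Col7a1 are the highest at Day 7, at 5.03 and 4.05.

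By the same measure of likeness, closest to Lama4 among 1312 genes were Wasf2 and Rras, a regulator of actin and a small GTPase, at root mean square differences of 0.078 and 0.094 log2 over the 6 libraries. Closest to Lamc1 were Fermt2, which encodes the integrin activator kindlin, at 0.035, and the surface glycoprotein gene Cd99 at 0.13. Closest to Nid1 were Ndufv3, a subunit of respiratory complex I, at 0.15 and the histone variant gene H2afv at 0.18. Between members, Lama4 and Lamc1 differed by 0.37 log2 and Nid1 and Lama4 by 0.45, while Npnt differed from each of these genes by 1.67 to 2.00.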

How the data were processed

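Amplified cDNA of 6 libraries was profiled by 3' SAGE; BWA 0.6.2 and the mouse build mm9 are named in the submitters' processing notes. The authors deposited 1 table in CPM (tags per 1000000 tags assigned to genes, per the file headers and column sums); the rule for assigning tags to genes and any use of strand: not given in the sources used here. Of the CPM values, 100% were whole multiples of the smallest value of their library within 0.001, which gave tag counts and depths. At 10 CPM in the Day 4 library the Poisson interval is 7.19 to 13.3 CPM. Without molecular identifiers, intervals cover counting error only. Groups came from the sample titles. The genes and lists were chosen with earlier results of these data known.

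A gene counted as measured when the 2 libraries of a comparison averaged at least 10 CPM. Differences of log2(CPM + 1) were taken from the median measured gene and called at 2-fold; the pseudocount of 1 understates changes of low genes. Median shifts in the remaining comparisons were -0.35 (Day 4 against Day 2), 0.07 (Day 7 against Day 4) and -0.14 log2 (Acta2 high against Acta2 low). Folds in the text are CPM ratios divided by the median gene's fold, with exact conditional intervals. All 10 genes are named; from other lists, up to 4 genes with a mean of at least 10 CPM and the largest difference in any comparison, plus genes said to be named after their values were seen; the values of some genes of the lists are not reported here. For each measured gene of the 10, the 2 closest profiles are named. Alternatives were pseudocounts of 5 and 0.1 CPM, no filter, no centring, median-ratio scaling, CPM without the 100 most abundant genes, a 4-fold rule, and an exact binomial test of the tags (adjusted at 0.05), which compares libraries and not conditions. That test called 3269 of 4256 genes for Day 2 against Untreated and 1227 of 3998 for Acta2 high against Acta2 low. The intervals of CPM ratios and the call rule were tried on simulated Poisson counts with 4-fold changes. The simulation held no amplification duplicates and no spread between libraries, so it covers counting error only. Work was done in Python 3.11.15 with numpy, pandas 2.3.3, scipy 1.17.1 and matplotlib.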

Additional observations from a re-analysis of the deposited data

How the results depend on the processing

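Without replicates no library could be left out, and no direction could be weighed against spread between animals; 6 of the 10 genes rest on under 10 CPM. No paired analysis was possible because each group has 1 library. The number of the 10 genes past 2-fold was 3, 2, 2, 1, 1 and 0 for Day 2, Day 4 and Day 7 against Untreated, Day 4 against Day 2, Day 7 against Day 4 and the Acta2 sorts. With no centring, and with a 4-fold rule, each comparison with Untreated kept 1 gene, Npnt. With no filter the counts there were 3 each but of other genes: Lama2, Npnt and Agrn at Day 2 and Day 4, and Lama2, Lama5 and Npnt at Day 7, so that Lama4 lost its call in all 3 and Nid1 at Day 2. A pseudocount of 5 CPM also left 1 gene, Npnt, at Day 4 and at Day 7. For Day 4 against Day 2 the count was 0 with a pseudocount of 5 CPM, with median-ratio scaling and with the 4-fold rule; with no filter and with no centring it was 1, but Npnt, lower, in place of Nid1. For Day 7 against Day 4 it was 3 with no filter (Lama5, Npnt and Agrn), 2 in CPM without the 100 most abundant genes (Lama5 and Npnt) and 0 with the 4-fold rule. For Day 7 against Untreated, CPM without the 100 most abundant genes gave 4 (Lama2, Lama4 and Npnt lower, Lama5 higher), since more genes then pass the filter. A pseudocount of 0.1 CPM moved none of these counts by over 1.5 times. The binomial test left them as they were, but it could not have lowered those against Untreated or between the Acta2 sorts. All measured genes past 2-fold there (1719, 1504, 920 and 64) also passed that test, so it is no separate check. No gene called in the main analysis changed direction under any of these alternatives. The alpha chain shares stayed within their intervals when Lama1 and Lama3 were left out.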

Other observations

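The following basement membrane genes, with a mean under 10 CPM over the 6 libraries, were picked after their values were seen. Fbln1, a fibulin of basement membranes and elastic fibres, had 103 tags in Untreated, 4 at Day 2, 2 at Day 4, 12 at Day 7, and 5 and 4 in the Acta2 low and Acta2 high sorts; its fold at Day 2, divided by that of the median gene, was 45.8 lower (17.4 to 171). At Day 7 it passed the level filter, 12-fold lower (6.58 to 24.0), and is among the 3 linker genes counted as lower there. It passed through its level in Untreated, at 18.8 CPM against 2.05 CPM at Day 7. At Day 2 and Day 4 it was lower still and failed the filter, so part of those counts is set by the filter. Vwa1, which encodes a perlecan-binding matrix protein, had 89 tags in Untreated and 4 to 13 in the other libraries, 39.6-fold lower at Day 2 (14.9 to 149). Egflam, which encodes pikachurin, a dystroglycan ligand, had 63 tags in Untreated, 10 at Day 2, 0 at Day 4, 19 at Day 7, and 4 and 3 in the Acta2 low and Acta2 high sorts. Col4a5 had 41 tags in Untreated against 9 at Day 2 and 26 at Day 7. Pxdn, the peroxidase that cross-links type IV collagen, had 6 tags in Untreated, 40 at Day 2, 36 at Day 4, 59 at Day 7, and 66 and 72 in the Acta2 low and Acta2 high sorts, and was 7.04-fold higher at Day 7 (3.05 to 19.9).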
